A study of Homo sapiens with 10 samples.

Results

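The human gene array used here carried 1105 probe sets that lie on microRNA genes, under 1079 symbols, among the 48144 gene-level probe sets tested. They were chosen by symbol alone: MIR followed by a digit, or MIRLET7, without the long noncoding host transcripts whose symbols end in HG and without the 6 hairpins of the miR-23, miR-27 and miR-24 clusters. All 1105 belonged to the main design of the array. Total RNA came from the established human cell line UT-SCC-12a, which derives from a squamous cell carcinoma of the skin, a keratinocyte cancer. Cells of 1 group carried a shMIMIC lentivirus for stable overexpression of miR-23b-3p and those of the other the same kind of vector with a scrambled RNA, so both groups were transduced and neither was untreated. Each group had 5 arrays. The labels do not say whether a stable line was 1 clone or a pool, nor whether the RNA samples within a group were grown separately. The p-values below therefore measure only how far these arrays scatter, which may be technical, and a difference between the 2 lines cannot be told apart from an effect of the microRNA.

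MicroRNAs are short RNAs that guide Argonaute proteins to messenger RNAs and repress them, mainly through base pairing of the seed, bases 2 to 8 of the mature strand. They are cut from hairpins by DROSHA in the nucleus and DICER in the cytoplasm. Many hairpins lie in introns of other genes or in clusters that are read as a single primary transcript. A probe set within a hairpin's span on an array of labelled cDNA from total RNA can read the primary transcript, a spliced or unspliced host or the hairpin, and which of them gave a signal here was not tested. Of the 1105, 22 spanned more than 200 bases, up to 61606, and so cover much transcript outside the hairpin; MIR143, MIR146A and MIR199A2 are the ones among them that are named below. The values therefore describe transcripts over hairpin loci and are not levels of mature microRNAs.

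The endogenous hairpin of the overexpressed microRNA, MIR23B, is no member. Its probe set read 6.43 ± 0.199 (SD, n = 5) on the log2 scale with the construct and 6.21 ± 0.215 in controls, and the groups overlapped. The labels do not give the sequence carried by the vector, so this probe set does not check the overexpression. Of 12 keratinocyte markers 10 were above background on all 10 arrays, KRT6A and KRT14 being the others, against 38.0% of all tested probe sets. Of the blood and immune markers 0 of 5 were above it, and of the melanocyte markers 0 of 4. Of the fibroblast markers 1 of 5 and of the endothelial markers 2 of the 3 measured, from a list of 4, were above it. This cut alone therefore does not settle the cell type. In these lists 0 markers passed the adjusted threshold. The mean of the 3 endothelial markers ran from 4.04 to 4.22 per array with miR-23b-3p and from 3.94 to 4.03 in controls without overlap, and its part in the results below was not tested. In a bulk sample fewer cells of a type and less RNA per cell cannot be told apart. Array medians lay between 3.14 and 3.19. The poly-A spikes, control RNAs of bacterial genes mixed in before labelling, averaged 5.20 to 5.46 per array with miR-23b-3p and 5.44 to 5.48 in controls, and their part in the differences below was tested only as a covariate. Only overexpressing replicate 5 lay within the range of the controls. The covariate thus largely goes with the group and cannot be fully told apart from it.

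Sequences show which members resemble the overexpressed microRNA and which molecules the largest separations between groups concern. RefSeq (GRCh38.p14) gave a hairpin for 906 of the 1105 members. Mature strands follow 5′ to 3′ with the seed in capitals. The first 3 share the seed of miR-23b-3p, and MIR23C was the only member whose RefSeq mature strand carries it. The next 4 form 2 pairs with a common seed that are described further on, and the last 2 show the offset of 1 base between the seed of miR-320e and that of its relative miR-320b.
miR-23b-3p: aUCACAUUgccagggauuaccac
miR-23a-3p: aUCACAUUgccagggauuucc
miR-23c: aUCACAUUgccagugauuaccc
miR-1-3p: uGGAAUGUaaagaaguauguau
miR-206: uGGAAUGUaaggaagugugugg
miR-1269a: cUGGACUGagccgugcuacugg
miR-1269b: cUGGACUGagccaugcuacugg
miR-320e: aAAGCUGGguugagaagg
miR-320b: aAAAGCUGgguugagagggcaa

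For 4 of the members whose groups separated, those described first in each direction, the whole RefSeq hairpin is shown with the annotated mature arms in capitals. MIR1250 lies at chr17:81133196-81133308 on the minus strand, MIR4653 at chr7:101159473-101159555 on the plus strand, MIR3190 at chr19:47226942-47227021 on the plus strand and MIR320E at chr19:46709282-46709354 on the minus strand, all in GRCh38.p14. Coordinates given with the array values below are those of the array annotation, hg19, and were not converted.
MIR1250: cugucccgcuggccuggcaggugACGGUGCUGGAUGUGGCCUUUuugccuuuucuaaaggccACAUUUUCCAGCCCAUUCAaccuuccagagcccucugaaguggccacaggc
MIR4653: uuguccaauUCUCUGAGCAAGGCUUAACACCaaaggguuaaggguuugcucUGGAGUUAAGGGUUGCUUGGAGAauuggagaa
MIR3190: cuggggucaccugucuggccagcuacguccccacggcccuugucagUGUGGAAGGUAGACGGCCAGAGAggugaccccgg
MIR320E: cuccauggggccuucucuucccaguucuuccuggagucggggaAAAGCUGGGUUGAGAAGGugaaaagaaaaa

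No hairpin probe set passed limma's adjusted threshold of 0.05 (Benjamini-Hochberg over all 48144 probe sets), against 9 of 48144, or 0.0187%, in the whole table. The lowest adjusted p of a member was 0.321, for MIR320E. At an unadjusted limma p under 0.05 there were 71 members, 39 of them higher and 32 lower with miR-23b-3p. This is 6.43% of the members, near the background of 6.63% over all probe sets, of which 3.67% were higher and 2.95% lower. With each array centred on its median the split was 33 higher and 41 lower. It was 32 and 17 without the dimmest 25% of probe sets, 51 and 25 with the replicate number as a block and 64 and 23 with the spike covariate, so the split depends on the processing. The plain test named in the file headers, run on the same values, called 0 members after adjustment and had 52 (4.71%) with an unadjusted p under 0.05, against 6.68% of all probe sets.

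The 2 groups did not overlap for 12 members, 5 higher and 7 lower with miR-23b-3p. That is 1.09% of the members, against a background of 1.35% over all probe sets, where 0.685% were higher and 0.661% lower. By this measure too the members stood at or below the rate of the array. The median difference, overexpressing minus control, was 0.00 on the log2 scale for the members as for all probe sets, with 558 members higher, 539 lower and 8 equal. Only 4 members, all with few probes, differed by 1.5-fold or more in either direction.

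**Figure D1:**
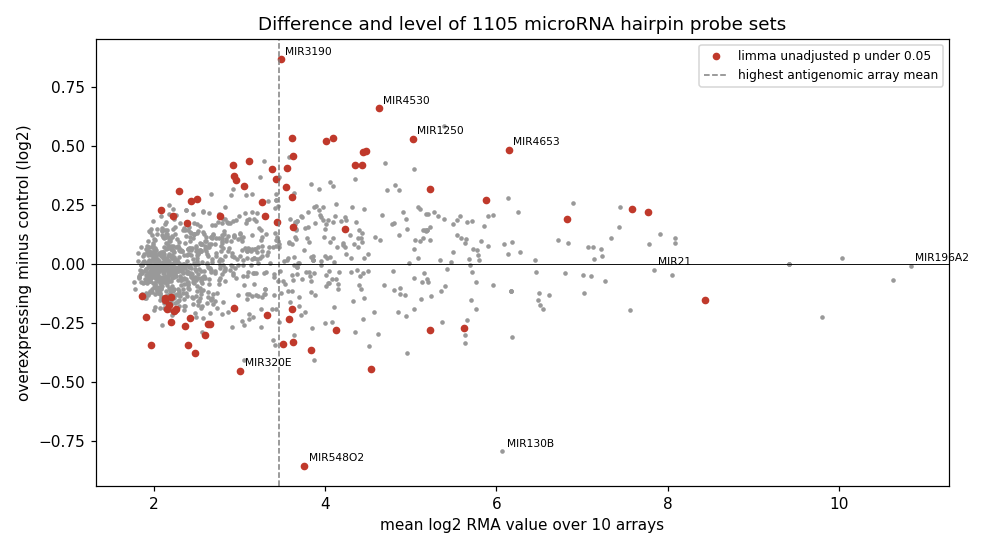
Each of the 1105 points is a hairpin probe set, with its mean log2 RMA value over the 10 arrays on the horizontal axis and its log2 difference, overexpressing minus control, on the vertical axis. Red marks an unadjusted limma p under 0.05, which 71 members had, and the dashed line is the highest array mean of the antigenomic control probe sets. Most points crowd to the left of that line and around 0.

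The level of most members was low. Antigenomic control probe sets, whose sequences are not in the human genome, averaged between 3.25 and 3.46 per array, and 3.46 was taken as background. The same cut was used for every probe set, whatever its base composition, so a value above it need not mean a transcript. Only 224 members (20.3%) were above it on all 10 arrays, 700 (63.3%) on none and 181 on some, whereas 38.0% of all tested probe sets were above it on all arrays. A hairpin leaves little room for probes: the middle 50% of members spanned 75 to 95 bases, and the median member had 13 probes against 21 for all probe sets. The median residual SD between arrays of a group was 0.180 for members and 0.146 for all. A difference in a member below background says little of its transcript.

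The share of members above background went with base composition. It was 5.46% of 183 hairpins with under 40% G and C, 8.72% of 321 from 40 to under 50%, 25.2% of 262 from 50 to under 60%, 54.5% of 110 from 60 to under 70% and 73.3% of 30 at 70% or more. The cut at background was not matched to base composition, and its part in this rise was not tested. Across the 906 members with a RefSeq hairpin, Spearman's rho of G and C content with the mean level was 0.597 and with the difference between groups 0.129. These probe sets share their arrays and, in families, their sequences, so both are descriptions. The median difference was -0.01 below 40%, 0.03 from 60 to under 70% and 0.11 at 70% or more, where 22 of 30 hairpins were higher with miR-23b-3p. In these 30 the median deviation per array ran from -0.05 to 0.11 with miR-23b-3p and from -0.10 to 0.10 in controls, and for all hairpins at 60% or more from -0.03 to 0.07 and from -0.04 to 0.01, so the groups overlapped in both. MIR4530, with 4 probes and 76.8% G and C, read 5.23, 5.24, 5.07, 4.85 and 4.38 with miR-23b-3p and 4.63, 3.91, 3.64, 4.63 and 4.67 in controls. Its difference of 0.66 (SE 0.22, adjusted p = 0.650) came with overlapping groups.

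**Figure D2:**
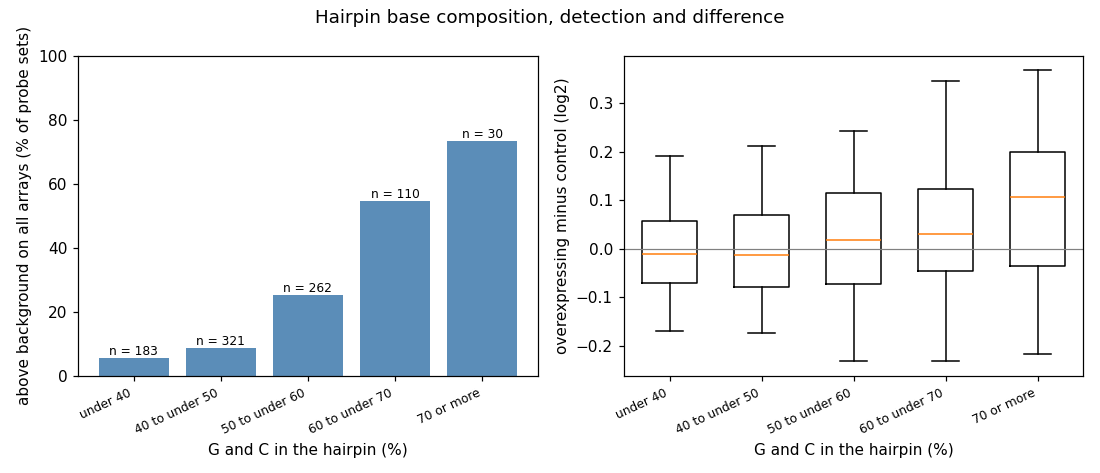
The left panel gives the percentage of hairpin probe sets above background on all 10 arrays by the G and C content of the RefSeq hairpin, rising from 5.46% to 73.3%. The right panel gives their log2 differences, overexpressing minus control, with the median in orange, boxes over the middle 50% and whiskers from the 5th to the 95th percentile; every box spans 0.

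Of the 224 members above background on all arrays, 137 were higher and 84 lower with miR-23b-3p, with a median difference of 0.05, while the other 18085 tested probe sets above background had 9475 higher, 8468 lower and a median of 0.01. This subset was chosen after the values were seen and gets no test. Its median deviation per array ran from 0.01 to 0.06 with miR-23b-3p and from -0.09 to 0.03 in controls, so the groups overlapped. Control replicate 1 gave the lowest of these values, and without it the median difference was 0.03. Among the 90 members above background whose probes match 1 place only (cross-hybridization type 1), the median was also 0.03.

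Among the members higher with miR-23b-3p, MIR1250 (hg19 chromosome 17, 79106996 to 79107108, minus strand) lies within AATK, the gene of apoptosis-associated tyrosine kinase, which also holds MIR657 and MIR338. It read 5.56, 5.20, 5.27, 5.14 and 5.27 with miR-23b-3p and 4.62, 4.91, 4.80, 4.37 and 5.09 in controls. All arrays were above background, and the lowest overexpressing array stood just above the highest control. The difference was 0.53 (SE 0.13, adjusted p = 0.381), 1.44-fold, and 0.43 to 0.61 with any 1 array left out. The probe set of AATK itself differed by -0.05 (SE 0.08), MIR657 by -0.12 and MIR338 by 0.17, each with overlapping groups. The 3 hairpins of this cluster and their host thus did not all have the same sign.

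MIR4653 (hg19 chromosome 7, 100802754 to 100802836, plus strand) lies within AP1S1, which encodes the small sigma subunit of the AP-1 clathrin adaptor. Its 7 probes, of cross-hybridization type 3, read 6.19, 6.38, 6.71, 6.42 and 6.22 with miR-23b-3p and 6.03, 6.0, 6.0, 5.96 and 5.52 in controls. Control replicate 5 was lower than the other controls, and the groups did not overlap. The difference was 0.48 (SE 0.12, adjusted p = 0.424), and 0.39 to 0.53 with any 1 array left out. AP1S1 differed by -0.06 (SE 0.06). The other member with the seed of miR-4653-5p, MIR3921, differed by -0.01.

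MIR3190 had the largest difference of all members. Its locus (hg19 chromosome 19, 47730199 to 47730278, plus strand) is antisense to BBC3, the gene of the p53-induced cell death protein PUMA, and shares its position with MIR3191 on the other strand. The 6 probes read 4.81, 3.66, 3.49, 4.20 and 3.41 with miR-23b-3p and 2.71, 3.36, 3.03, 3.21 and 2.93 in controls. Overexpressing arrays were spread widely, with an SD of 0.588, and every control was below background. The difference of 0.87 (SE 0.24, adjusted p = 0.492) corresponds to 1.82-fold. With the poly-A spike level as a covariate it was 0.50 (SE 0.30, adjusted p = 0.824). MIR3191 differed by -0.04.

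MIR4294 (hg19 chromosome 10, 50193557 to 50193632, minus strand) read 4.57, 4.64, 4.52, 5.13 and 4.55 with miR-23b-3p and 4.47, 3.90, 4.47, 4.16 and 4.04 in controls. Replicate 4 stood above the other overexpressing arrays. Its difference of 0.47 (SE 0.14, adjusted p = 0.529) was 0.22 with the spike covariate (adjusted p = 0.879). MIR4315-1, on the haplotype contig 17_ctg5_hap1 in the array annotation, read 7.81, 7.81, 7.92, 7.83 and 8.04 with miR-23b-3p and 7.76, 7.55, 7.62, 7.79 and 7.58 in controls. Its difference was 0.22 (SE 0.07, adjusted p = 0.639), and its probes cross-hybridize (type 3).

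Among the members lower with miR-23b-3p, MIR320E (hg19 chromosome 19, 47212541 to 47212607, minus strand, within the protein kinase D gene PRKD2) read 2.84, 2.96, 2.83, 2.61 and 2.68 with miR-23b-3p and 3.13, 3.26, 3.56, 3.08 and 3.15 in controls. Only control replicate 3 was above background, and the probes are of cross-hybridization type 3. The difference was -0.45 (SE 0.10, adjusted p = 0.321). PRKD2 differed by -0.01 (SE 0.07). The 7 members with the offset seed of miR-320b, among them the MIR320B, MIR320C and MIR320D copies, ranged from -0.18 to 0.06, and 0 of 7 had an unadjusted p under 0.05.

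MIR1-2 (hg19 chromosome 18, minus strand) lies antisense within MIB1, the gene of a ubiquitin ligase for Notch ligands, beside MIR133A1, and both make microRNAs of muscle. It read 1.82, 1.73, 1.82, 1.80 and 1.80 with miR-23b-3p and 2.07, 1.97, 2.0, 1.99 and 2.06 in controls, all of them far below background. The difference was -0.22 (SE 0.05, adjusted p = 0.419). Its neighbour MIR133A1 differed by 0.15. MIR206, which makes a microRNA with the same seed, differed by 0.28 (adjusted p = 0.730; 0.14 with the spike covariate), MIR1-1 by -0.08, and the 4 members with this seed had a median of -0.08.

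The other 5 separated members had differences of -0.13 to -0.20, with adjusted p-values from 0.575 to 0.750. MIR181A1, which makes miR-181a, a regulator of lymphocyte development, read 2.21, 2.08, 2.07, 2.13 and 2.20 with miR-23b-3p and 2.35, 2.33, 2.38, 2.23 and 2.39 in controls. MIR181B1 in the same transcript differed by -0.11 and their host MIR181A1HG by -0.03. MIR199B, antisense within the dynamin gene DNM1, averaged 2.05 ± 0.048 (SD, n = 5) against 2.20 ± 0.050, and MIR4699, within ACSS3, 1.80 ± 0.069 against 1.93 ± 0.031. MIRLET7C averaged 2.14 ± 0.079 against 2.28 ± 0.057. These 4 were below background on all arrays. MIR622 (cross-hybridization type 3) was above it, at 8.36 ± 0.076 against 8.51 ± 0.023.

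**Figure D3:**
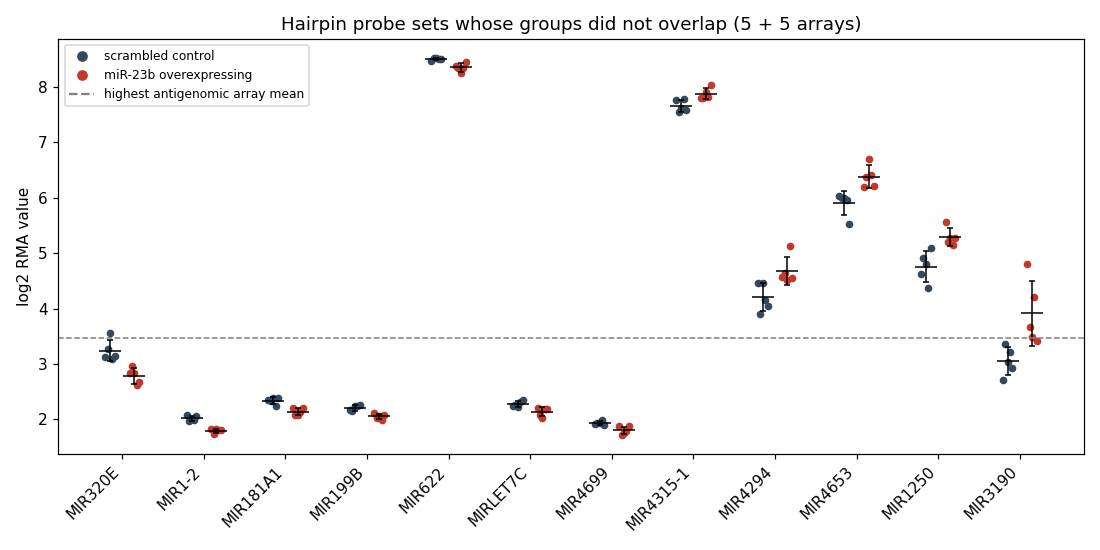
Log2 RMA values of the 12 hairpin probe sets whose groups did not overlap, ordered by difference, with 1 point per array, the group mean as a bar and the SD as the error bar (n = 5 per group). MIR622, MIR4315-1, MIR4294, MIR4653 and MIR1250 lie above the dashed background line on all arrays, and MIR1-2, MIR181A1, MIR199B, MIRLET7C and MIR4699 below it.

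Each of these 12 had an exact two-sided permutation p of 0.00794, the smallest that the 252 splits of the 10 arrays can give, and this holds for any probe set whose groups do not overlap. With the spike covariate MIR1250 was 0.59, MIR4315-1 0.30, MIR4653 0.38, MIR320E -0.39 and MIR1-2 -0.23. MIR181A1 was -0.18 with it, MIRLET7C -0.15, and MIR199B, MIR4699 and MIR622 were each -0.11. In the authors' deposited table a p under 0.05 was given for 51 members and a q under 0.05 for 0. The lowest q of a member in the authors' deposited table was 0.0898, for MIR1-2, with a signed fold of -1.17.

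MIR23C, the 1 member with the seed of miR-23b-3p, lies within MAP7D2 on the X chromosome (hg19 20035206 to 20035305, minus strand). It read 2.38, 3.12, 2.61, 2.99 and 2.69 with miR-23b-3p and 2.74, 2.18, 2.70, 3.07 and 2.28 in controls. The groups overlapped through most of their range and all arrays were below background. The difference was 0.16 (SE 0.18, adjusted p = 0.904), and that of MAP7D2, a microtubule-associated protein gene, was -0.01.

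Some loci known for abundant microRNAs in keratinocytes and carcinomas were well above background and gave close values in both groups. MIR21, a microRNA gene raised in many carcinomas, read 7.82 ± 0.107 (SD, n = 5) with miR-23b-3p and 7.85 ± 0.036 in controls, a difference of -0.02 (SE 0.07). MIR196A2, inside the HOXC gene cluster, read 10.83 ± 0.092 against 10.84 ± 0.051. MIR221 and MIR222, neighbours that repress the cell cycle inhibitor p27, differed by 0.09 (SE 0.13) and 0.06 (SE 0.13). These 4 were picked after their values were seen.

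MIR31, known from keratinocytes and squamous carcinomas, read 5.64, 5.81, 5.51, 5.33 and 5.13 with miR-23b-3p and 5.63, 6.0, 5.57, 5.45 and 6.28 in controls. The groups overlapped, and the difference was -0.30 (SE 0.16, adjusted p = 0.804). Without control replicate 5 it was -0.18. Its host MIR31HG differed by -0.04 (SE 0.07). MIR205HG, host of the keratinocyte microRNA miR-205, for which no probe set met the choice by symbol, differed by 0.02 (SE 0.06).

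**Figure D4:**
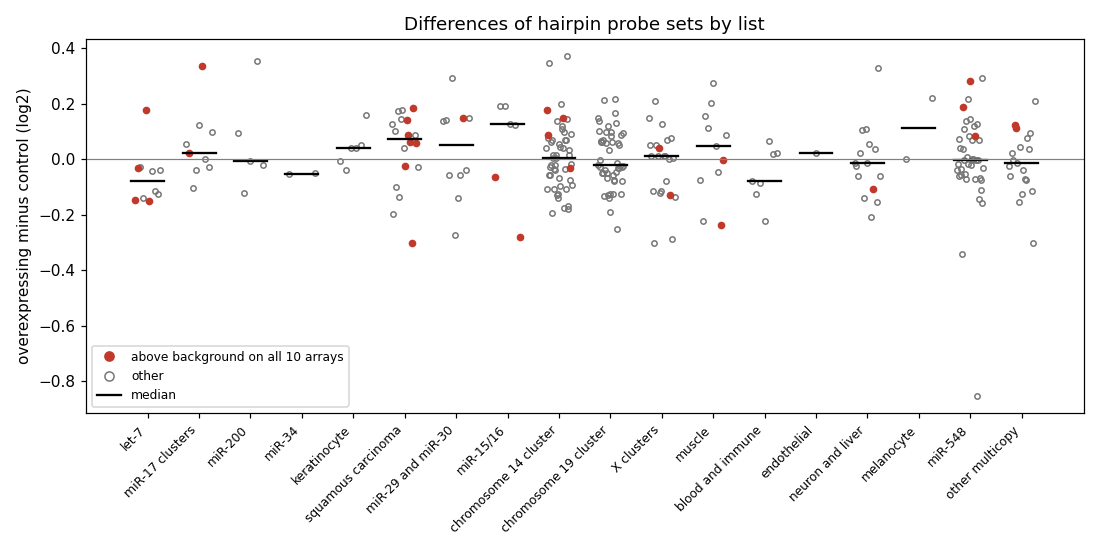
Log2 differences, overexpressing minus control, of the members of 18 lists of microRNA genes, 1 point per probe set. Filled points were above background on all 10 arrays, open points were not, and the black bar is the median; lists of 5 or more members lie on both sides of 0, and MIR548O2 is the lowest point at -0.85.

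MicroRNA families were next read as lists, and 0 members passed the adjusted threshold in any of them. Growth-restraining families came first. The let-7 list, whose microRNAs repress RAS and other growth genes, had 1 of 10 members higher and 9 lower, with a median of -0.08 and a range from -0.15 to 0.18. MIRLET7C alone had a p under 0.05, and only 4 of the 10 were above background. MIR98 differed by -0.15 (adjusted p = 0.822) and MIRLET7E by -0.15 (adjusted p = 0.861). With the 2 other members that share the let-7 seed, 2 of 12 were higher and 10 lower, at a median of -0.04.

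The p53-induced miR-34 list had 2 members, MIR34A at -0.05 and MIR34B at -0.05, both below background, and with the spike covariate both were above 0. In the miR-15/16 list, whose microRNAs target cyclins and BCL2, 4 of 6 were higher and the median was 0.13. MIR503 read 3.89, 4.10, 3.91, 4.06 and 4.01 with miR-23b-3p and 4.22, 4.03, 4.13, 4.64 and 4.35 in controls, a difference of -0.28 (SE 0.10, adjusted p = 0.691). MIR195 and MIR497, paired in 1 transcript, differed by 0.13 and 0.12 (0.28 and 0.25 with the spike covariate). The miR-29 and miR-30 list, which includes repressors of collagen genes, had 5 of 10 higher, a median of 0.05 and 0 with p under 0.05.

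The miR-17 clusters, driven by MYC and E2F, had 5 of 9 members higher, 3 lower and a median of 0.02, with 0 at p under 0.05. MIR25, in an intron of the replication helicase gene MCM7, came nearest at 0.34 (SE 0.16, adjusted p = 0.757) and was 0.20 without control replicate 5. MIR18B differed by -0.10 and MIR20B by 0.12. MIR17HG, the primary transcript of the first cluster, differed by 0.03 (SE 0.07).

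Epithelial lists gave equally small values. In the miR-200 list, whose microRNAs repress ZEB1 and ZEB2 and so guard the epithelial state, 2 of 5 were higher and the median was -0.01. MIR200C read 3.12, 2.84, 3.45, 2.99 and 3.28 with miR-23b-3p and 2.63, 2.86, 2.50, 3.19 and 2.73 in controls, with a difference of 0.35 (SE 0.14, adjusted p = 0.706) below background. MIR141, its partner in the same cluster, differed by 0.09 and MIR200A, of the other cluster, by -0.12. The keratinocyte list had 4 of 6 higher and a median of 0.04. MIR203A, whose microRNA represses p63 as keratinocytes differentiate, differed by 0.04 and MIR203B by 0.05, both below background, and MIR99A by 0.16.

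The list of microRNAs reported in squamous carcinoma had 12 of 18 higher, 6 lower and a median of 0.07. MIR199A2, whose probe set spans 6252 bases antisense within DNM3, differed by 0.18 (SE 0.07, adjusted p = 0.712; 0.08 with the spike covariate), MIR181A1 by -0.20 and MIR31 by -0.30. In the imprinted cluster of chromosome 14, 27 of 51 members were higher, 24 lower and the median was 0.01. MIR539 differed by 0.37 (adjusted p = 0.665), MIR433 by 0.15 (adjusted p = 0.750) and MIR134 by 0.35 (adjusted p = 0.753). With the spike covariate MIR539 was 0.11 and MIR134 0.05, and 40 of 51 were below background on every array. In the primate cluster of chromosome 19, which is active in placenta, 22 of 49 were higher, 27 lower and the median was -0.02. None of these 49 was above background on all arrays. MIR518E differed by -0.19, MIR520F by -0.25 and MIR1283-2 by 0.15.

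Lists for cell types that the culture should lack were mostly below background. So were, on every array, 63.3% of all members and 5 of the 6 in the keratinocyte list. A low level therefore does not single out these cell types. The testis-type clusters of the X chromosome had 13 of 22 higher and 8 lower, a median of 0.01 and 2 members above background. MIR509-2 differed by -0.30 (adjusted p = 0.508), while its copy MIR509-3 differed by 0.21 and MIR892A by -0.29. The muscle list had 6 of 11 higher, a median of 0.05 and 3 members with an unadjusted p under 0.05, against 6.63% of all probe sets. Of the 11, 2 were above background on all arrays. MIR1-2 was lower, at -0.22, and MIR206 and MIR143 higher, at 0.28 and 0.20; the probe set of MIR143 spans 26148 bases. The blood and immune list had 3 of 7 higher and a median of -0.08. MIR144 was at -0.12, MIR150 at -0.22 (-0.48 with the spike covariate) and MIR146A, whose probe set spans 19159 bases, at -0.09.

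The endothelial list was MIR126 alone, at 0.02. Neuron and liver microRNAs had 6 of 15 higher and a median of -0.01, with MIR9-1 at 0.33 (adjusted p = 0.750), MIR218-2 at -0.15 and MIR138-1 at -0.21. Of the 15, 1 was above background on all arrays. The melanocyte list held MIR211, within the melanocyte channel gene TRPM1, at 0.22 (adjusted p = 0.762; 0.08 with the spike covariate) and MIR204 at 0.00, whose sign turned when arrays were centred on their medians.

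Families of near-identical copies were read with more caution, since their probes cannot be assigned to 1 copy. Of 1105 members, 475 carried cross-hybridization type 3, and 38 members in 17 sets had the same values as another member on every array, which left 1084 distinct profiles. MIR1244-1, for example, has 3 probe sets on chromosomes 5 and 12 with 1 common profile. The primate miR-548 list had 19 of 41 higher, 22 lower and a median of 0.00. MIR548O2 read 2.55, 3.99, 3.92, 3.13 and 3.08 with miR-23b-3p and 3.61, 4.50, 3.66, 5.18 and 3.98 in controls. Its difference of -0.85 (SE 0.33, adjusted p = 0.703) rested on 5 probes and overlapping groups. MIR548AK differed by -0.34 and MIR548F2 by 0.22. Other multicopy names had 8 of 19 higher and a median of -0.01, with MIR509-2, MIR509-3 and, at -0.15, MIR1302-3 leading by p.

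MIR1269A on chromosome 4 and MIR1269B on chromosome 17, which share the seed printed above, were picked after their values were seen. MIR1269A read 3.60, 3.78, 3.81, 3.99 and 4.09 with miR-23b-3p and 3.64, 3.13, 3.18, 3.24 and 3.80 in controls, a difference of 0.46 (SE 0.14, adjusted p = 0.575). MIR1269B read 3.79, 4.43, 4.33, 4.60 and 4.64 with miR-23b-3p and 4.14, 3.52, 3.82, 4.28 and 3.37 in controls, a difference of 0.53 (SE 0.19, adjusted p = 0.675). In each, 3 or more overexpressing arrays lay above all controls, yet the groups overlapped. MIR130B, another of the 4 members past 1.5-fold, read 5.97, 4.24, 4.93, 6.58 and 6.65 with miR-23b-3p and 7.44, 7.10, 6.21, 5.55 and 6.03 in controls. This probe set, of 4 probes, varied by more than 2 log2 units between the overexpressing arrays, and its difference of -0.79 had an SE of 0.48 (adjusted p = 0.822).

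Clustered hairpins were compared because they can share a primary transcript. Within 10 kb of each other on 1 strand, 248 members formed 59 clusters. The cluster from MIR512-1 to MIR519A2 on chromosome 19 held 46 members, 21 higher and 25 lower, and that from MIR379 to MIR656 on chromosome 14 held 42, 22 higher and 20 lower. Of the smaller clusters with at least 5 members, 3 had the same sign throughout and the others held both signs. All 8 from MIR532 to MIR502, within the chloride channel gene CLCN5 on the X chromosome, were higher by 0.02 to 0.20. CLCN5 differed by -0.06 (SE 0.07) at a mean level of 2.96, below background. All 6 MIR3689 copies were higher by 0.02 to 0.41, and all 5 from MIR450B to MIR503 were lower, from -0.28 to -0.04. MIR3689A, MIR3689B, MIR3689E and MIR3689F share a seed, as do MIR3689D1 and MIR3689D2. Probes on such copies may read the same molecules, so the 6 need not be separate readings. Above background on all arrays were 3 of the 8, 4 of the 6 and 1 of the 5. These clusters were picked for their common sign, so the sign is a description.

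Host genes were compared because an intronic hairpin can be cut from its host's transcript, which the spans alone do not show. A named probe set spanned 542 members on the same strand, and 532 of these had a single host probe set. The sign of the difference was the same for hairpin and host in 279 of the 532. Only 356 of the 532 had a host with a mean level above background, and 317 of the 542 members were above it on no array. Where hairpin or host was below background, the comparison of signs says little of their transcripts. Of 36 hairpins with a p under 0.05, 5 (13.9%) had a host with a p under 0.05 as well, against 45 (8.46%) of all 532 and 6.63% of all probe sets, and the signs were the same in 2 of the 5. A host shared by several hairpins was counted once for each, as MIR99AHG was for MIR99A and MIRLET7C. The shares of hairpins are therefore not rates over separate hosts. MIR589 differed by 0.42 (SE 0.14) and its host FBXL18, an F-box protein gene, by 0.22 (SE 0.07). MIR99A differed by 0.16 and MIR99AHG, below background on all arrays, by 0.26 (SE 0.08). The 1 host that passed the adjusted threshold was CDH13, the gene of the adhesion protein T-cadherin, at 4.29 ± 0.170 (SD, n = 5) with miR-23b-3p and 4.91 ± 0.087 in controls, a difference of -0.63 (SE 0.09, limma adjusted p = 0.0406). MIR3182 within it differed by -0.16 (SE 0.14, adjusted p = 0.879); this pair was picked after its values were seen.

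The other 3 hairpins had the opposite sign to their host. MIR139 read 3.41, 3.40, 3.41, 3.53 and 3.55 with miR-23b-3p and 3.53, 3.80, 3.87, 3.54 and 3.73 in controls, a difference of -0.23 (SE 0.08). Its host PDE2A, a cyclic nucleotide phosphodiesterase gene, differed by 0.27 (SE 0.07). MIR637 differed by -0.44 and its host DAPK3, a death-associated protein kinase gene, by 0.26. MIRLET7C differed by -0.14, although it shares the transcript MIR99AHG with MIR99A.

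**Figure D5:**
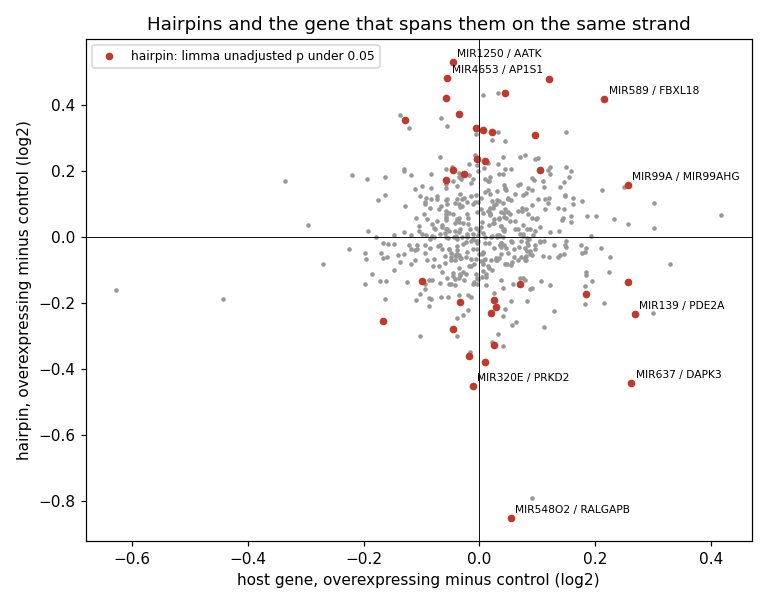
Each point is 1 of the 532 hairpins with a single host probe set, with the host's log2 difference, overexpressing minus control, on the horizontal axis and the hairpin's on the vertical axis. Red marks an unadjusted limma p under 0.05 for the hairpin, and the points spread around 0 with no alignment along a diagonal; 279 of 532 share the sign. Of the 532, 356 had a host with a mean level above background.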

How the data were processed

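Total RNA was labelled with biotin as cDNA and read on Affymetrix human gene arrays, per the labels' protocols. The deposited log2 values, given to 2 decimals, come from RMA and Transcriptome Analysis Console, the tools named in the submitters' processing notes. The header of the authors' table lists median polish after quantile normalization and RMA's background step. Signed fold changes (a score with no values between -1 and 1) and p-values and q-values from Student's test were deposited by the authors, per the file headers. Their fold of B over A equalled overexpressing over control in 53617 of 53617 probe sets (relative tolerance 0.001). A further 10 columns of values per array matched no label and were not used.

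Symbols, hg19 coordinates and cross-hybridization types came from the annotation columns of that table. Of the probe sets, 5473 control and reporter ones were left out. For the difference between the groups, limma 3.58.1 (lmFit, eBayes; R 4.3.3) was run over 48144 probe sets on 10 arrays, without covariates, with Benjamini-Hochberg adjustment; SE is limma's moderated one. All p-values without another name are limma's. The code was tested on simulated data. Arrays give no read depth, and their number limits the precision. A host is a named probe set whose span holds the hairpin on its strand.

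Members and lists were chosen with earlier results of these data known. Named members were those with separated groups (up to 12 per direction), those sharing the seed of miR-23b-3p, the 3 with the smallest p per list, cluster neighbours and hosts of these, and markers; those said to be picked later fall outside. The neuron and liver list was corrected after its values were seen, because its search pattern had also taken unrelated names. The cut at background, the count of separated groups, GC classes, seed families and sign counts of clusters were added after seeing the data. Numbered replicates were not paired: deviations of same-numbered arrays correlated between -0.101 and 0.043. Alternatives are given in the closing section.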

Additional observations from a re-analysis of the deposited data

Results flagged for a closer look

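Among the named members, 124 sets of 5 arrays were searched for a single array far from the other 4 of its group, by Dixon's criterion at 95%. It was found in 12, and chance gives about 1 in 20. With miR-23b-3p, MIR1-2 read 1.73 in replicate 2, MIR4294 5.13 in replicate 4, MIR520F 2.80 in replicate 2, MIR133A1 2.49 in replicate 1 and MIR204 2.43 in replicate 5. In controls, MIR4653 read 5.52 and MIR25 4.11 in replicate 5, MIR509-2 2.57, MIR133A1 1.79 and MIRLET7E 5.47 in replicate 1, and MIR195 2.90 and MIR203A 2.16 in replicate 3. Of these, MIR4294, MIR4653, MIR25 and MIRLET7E were above background on all arrays. The lone arrays were spread over several replicates, and their cause was not tested.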

How the results depend on the processing

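No member passed the adjusted threshold under any alternative run, among them a threshold of 0.01; the table as a whole had 9 calls, 1 with the replicate block, 39 with a trended robust prior, 2 with the spike covariate and 5 to 8 with an array left out. With the replicate block, 76 members (6.88%) had an unadjusted p under 0.05, against 6.14% of all probe sets, and with the spike covariate 87 (7.87%), against 6.60%. With cross-hybridization type 1 only, 630 members were left, of which 44 (6.98%, all 6.88%) had an unadjusted p under 0.05 and 6 had separated groups (all 1.41%). Without the dimmest 25% of probe sets, 611 were left, with a median difference of 0.038 and 7 separated (all 1.59%). Leaving out 1 array gave 70 to 87 members with p under 0.05, medians from -0.002 to 0.01, medians above background from 0.0275 to 0.0703 and, with fewer arrays to separate, 15 to 22 separated members (1.36 to 1.99%, against 2.13 to 2.33% of all probe sets); the count was 22 without control replicate 1, 20 without control replicate 4 or overexpressing replicate 2, and 19 without overexpressing replicate 4. The cut at each array's own antigenomic mean put 237 members above background, against 224.

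Of 1138 values of 62 named members, 1126 kept their sign and side of the threshold, and 12 turned sign. With 1 array left out, MIR657 ranged from -0.218 to 0.032, MIR126 from -0.041 to 0.0805 and MIR204 from -0.032 to 0.033; 8 of the 12 turns lie in these ranges. With the spike covariate MIR338 was -0.26, MIR34A 0.0196 and MIR34B 0.111, and MIR204 was -0.014 after centring. The cause was not tested. MIR150 went from -0.222 to -0.485 with the spike covariate and MIR195 from 0.126 to 0.283. The spike covariate moved 28 of the 62 by over 1.5 times, 16 of them towards 0, 9 away from 0 and 3 to the other sign. Leaving out 1 array did so for 30, of which MIR9-1 (0.213 to 0.403) alone had an unadjusted p under 0.05. The lowest adjusted p was 0.0778, for MIR1-2 in Student's test. Few probes per hairpin and signal near background limit what these arrays can show.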
